A study of Mus musculus with 21 samples.

Results

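Expression of 10 genes of the BCL2 family, Bcl2, Bcl2l1, Mcl1, Bcl2a1b, Bax, Bak1, Bcl2l11, Bid, Bmf and Bbc3, was examined by RNAseq in conventional dendritic cells (cDCs) of mouse spleen and thymus. These 10 were chosen by name among the 37734 genes listed for each library. The cells came from C57BL/6 (B6) mice aged 6 to 8 weeks, and each library was made from a numbered pool of animals. CD11c+ cells were released by enzymatic digestion, enriched on magnetic beads and sorted by flow cytometry into cDC1 (CD24+ CD11b-), which are specialised in cross-presentation, and cDC2 (CD24- CD11b+), which are specialised in presentation to CD4 T cells. The labels give an exclusion of F4/80, Ly6g, Ly6c and DX5 for the cDC1 gate and not for the cDC2 gate, while the study's own flow cytometry defined both subsets as F4/80-. Immature cells were CCR7- Esam- and mature cells were CCR7+ Esam+. The 6 groups were splenic cDC1 (SP1Minus) and cDC2 (SP2Minus), immature thymic cDC1 (TH1Minus) and cDC2 (TH2Minus), and mature thymic cDC1 (TH1Plus) and cDC2 (TH2Plus). Splenic cells were sorted as immature only. The study asked how the tissue, the subset and the maturation of dendritic cells relate to gene expression, and the comparisons below put these questions to the BCL2 family.

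BCL2 family proteins set the threshold of the mitochondrial pathway of apoptosis. Survival members such as BCL2, BCL-XL, MCL1 and A1 hold the effectors BAX and BAK in check, and BH3-only members such as BIM, BID, BMF and PUMA respond to stress or signals by binding the survival members or by activating the effectors, which then permeabilise the outer mitochondrial membrane. Dendritic cells are short-lived, and the balance of survival and BH3-only proteins is known to limit their lifespan.

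The 21 libraries held 14266867 to 40119669 reads assigned to genes. Splenic cDC1 replicates 4 and 5 had the same pool, index and lane and differed far less than any other pair of their group (chi-square per degree of freedom 2.21 against 19.9 or more), so they were counted as 1 sample, which left 20 samples with 4 in each of SP1Minus and TH1Minus and 3 in each other group. The labels were checked against marker genes. The summed level of 5 cDC1 markers was 78004 to 91759 normalized reads in splenic and immature thymic cDC1 and 2818 to 4785 in splenic and immature thymic cDC2, and Ccr7, on which the mature cells were sorted, averaged 110227 in mature thymic cDC1, 99928 in mature thymic cDC2 and at most 3782.5 in the other groups. In mature cDC2 the cDC1 markers summed to 14299 to 22307, still below the 40302 to 43791 of mature cDC1. Irf8 and Batf3 averaged 13787 and 4532 in mature cDC2, whereas Xcr1, Clec9a and Cadm1 averaged 18.9, 36.0 and 101. The 5 cDC2 markers summed to 37637 to 49132 in splenic and immature thymic cDC2 and 378 to 3347 in the cDC1 counterparts. They summed to 13928 to 17615 in mature cDC2 and 2114 to 3607 in mature cDC1. Sirpa and Irf4 averaged 7413 and 8279 in mature cDC2, and 15302 and 9459 in immature thymic cDC2. Itgam, Cd209a and Clec10a averaged 20.4, 142 and 55.6 in mature cDC2, against 417, 18624 and 3843 in immature thymic cDC2. All 6 mature libraries were sequenced in lane 8, together with 9 of the 15 immature libraries, and the other 6 immature libraries in lane 5. Mature cDC2 replicate 3 stood apart from replicates 1 and 2 by its macrophage markers, which summed to 1156 against 9216.5 and 10034. Splenic cDC1 replicates 1 and 4 came from 1 pool, as did immature thymic cDC1 replicates 3 and 4, so the 4 samples of each of these groups stand for 3 pools. Immature thymic cDC1 replicates 3 and 4 also had the same index and lane. They differed more than any other pair of their group (chi-square per degree of freedom 74.3 against 18.4 to 65.6) and were kept apart. The labels name no animal beyond the pool, so the p-values below measure the spread between these libraries, part of which is technical.

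In the annotation of the mouse genome build mm10 (GENCODE M21) the survival genes lie at chr1:106538178-106714274 (Bcl2, minus strand), chr2:152780668-152831728 (Bcl2l1, minus), chr3:95658788-95663176 (Mcl1, plus) and chr9:89199209-89207827 (Bcl2a1b, plus). The effectors lie at chr7:45461697-45466898 (Bax, minus) and chr17:27019810-27029009 (Bak1, minus). The BH3-only genes lie at chr2:128126038-128162547 (Bcl2l11, plus), chr6:120891930-120916853 (Bid, minus), chr2:118528757-118549687 (Bmf, minus) and chr7:16308393-16318205 (Bbc3, plus). The values count reads over the exons of a whole gene and do not separate its transcripts.

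To compare levels between genes, the normalized read count, which is the read count divided by the size factor of its library, was divided by the annotated exon length in kilobases (kb). Mcl1, which encodes a short-lived survival protein, had the highest level per kb in every group, from 3324 ± 217 (SD, n = 4) in immature thymic cDC1 to 7068 ± 1084 (SD, n = 3) in mature thymic cDC1. Bcl2, the founding survival gene of the family, was the lowest of the 10 in splenic cDC1 and in immature and mature thymic cDC1 and mature cDC2, at 40.4, 23.6, 6.80 and 11.2 normalized reads per kb. In splenic cDC2 the lowest was Bcl2l1, which encodes BCL-XL, at 34.0 per kb, and in immature thymic cDC2 it was Bbc3, which encodes PUMA, at 55.9 per kb.

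The make-up of the survival class differed between mature and immature cells. Mcl1 made up 93.1% ± 2.50 (SD, n = 4) of the summed level per kb of the 4 survival members in immature thymic cDC1, whereas mature thymic cDC1 were at 69.6% ± 8.56 (SD, n = 3). In cDC2 its share was 90.1% ± 3.55 in immature and 73.7% ± 3.57 in mature thymic cells (SD, n = 3 each). The difference was taken up by Bcl2a1b, which encodes A1, at 3.51% in immature and 22.4% in mature cDC1 of the thymus and 6.74% and 18.3% in cDC2, and by Bcl2l1, at 2.78% and 7.95% in cDC1 and 1.66% and 7.91% in cDC2. The sum itself was 3353 to 3718 normalized reads per kb in immature and 9710.5 to 10526 in mature thymic cDC1. Among the 4 BH3-only members, Bid held the largest share in splenic and immature thymic cDC1 (58.8% and 59.4%), Bcl2l11, which encodes BIM, in immature thymic cDC2 (44.7%) and mature thymic cDC1 (38.1%), and Bmf in splenic and mature thymic cDC2 (35.0% and 41.1%). In splenic cDC2 the shares of Bmf and Bid overlapped between samples, at 29.0% to 40.1% and 25.2% to 36.3%. The exon length combines all annotated transcripts, at 3550 bases for Bid and 5253 for Bmf. Their longest single transcripts have 2415 and 4642 bases, so the order of genes within a class depends on the length used. These shares are descriptions of the levels, with no test.

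**Figure D1:**
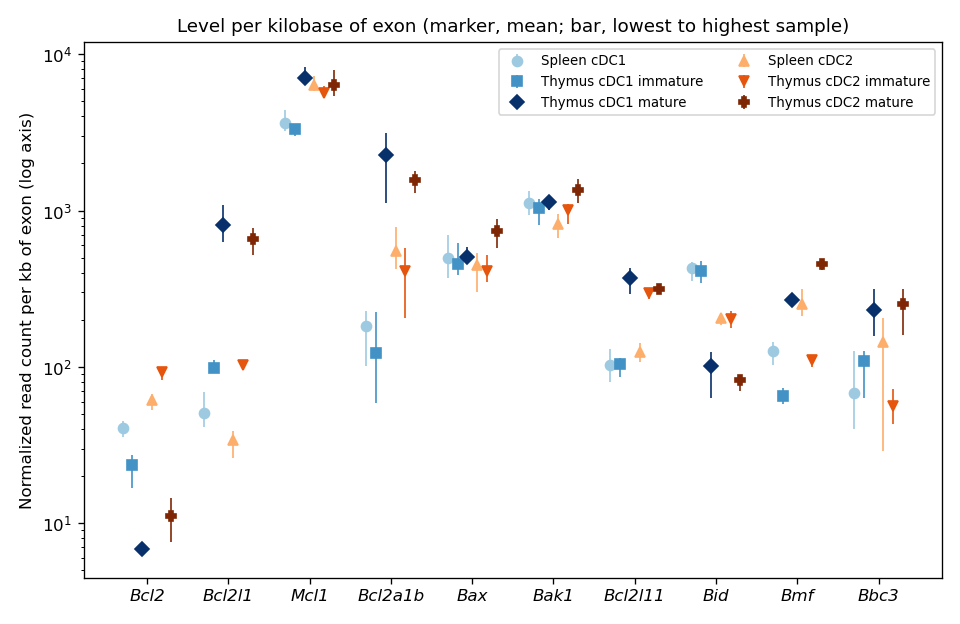
Level of the 10 genes in normalized reads per kb of exon on a log axis, with the mean of each of the 6 groups as a marker and a bar from the lowest to the highest sample. Mcl1 lies above the other 9 genes in every group, and Bcl2 is at 6.80 and 11.2 per kb in the mature groups.

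Maturation in the thymus went with changes in most of the family. Of the 10 genes, 8 differed between mature and immature thymic cDC1 by an adjusted p below 0.1 and more than 2-fold, with 6 higher on the mature side and 2 lower, where 45.7% of the 14970 genes tested passed the same limits in either direction, 21.3% higher and 24.5% lower. In cDC2 the count was 6, with 4 higher and 2 lower, against 35.6%, 18.6% and 17.0% of all tested genes. The adjusted p alone was passed by 8 of 10 in cDC1 and 8 of 10 in cDC2 (64.1% and 53.2% of all tested genes), and the samples of mature and immature cells did not overlap for 8 of 10 in each subset (55.3% and 60.0%). The median log2 fold change of the 10 was 1.09 in cDC1 and 0.64 in cDC2, beside -0.04 and 0.04 over all tested genes. Bcl2 and Bid fell and Bcl2l1, Bcl2a1b, Bmf and Bbc3 rose in both subsets, whereas Mcl1 and Bcl2l11 rose in cDC1. In bulk samples, fewer cells of a type and less RNA per cell cannot be told apart.

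Among the survival genes, Bcl2 fell on maturation. Its normalized read count was 237, 225, 153 and 249.6 in the 4 samples of immature thymic cDC1 and 60.8, 58.9 and 67.2 in mature cDC1. In cDC2 it was 920.2, 869 and 754 in immature and 106, 132 and 69.1 in mature thymic cells. The highest mature sample lay below the lowest immature sample in each subset. The mature level was 3.37-fold lower in cDC1 (log2 fold change -1.75, SE 0.23, limma adjusted p = 1.1e-06) and 8.46-fold lower in cDC2 (log2 fold change -3.08, SE 0.24, limma adjusted p = 2.08e-09). The mature values rest on 33 to 190 reads per library.

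Bcl2l1 moved the opposite way. Its level was 425, 444, 506 and 439.6 in immature and 2902, 3277 and 4975 in mature thymic cDC1. In cDC2 the values were 504, 447 and 467 in immature and 3146, 3551 and 2395 in mature cells. The lowest mature sample, at 2395, lay well above the highest immature sample, at 506. The gene was 7.98-fold higher in mature cDC1 (log2 fold change 3.00, SE 0.21, limma adjusted p = 1.79e-10) and 6.33-fold higher in mature cDC2 (log2 fold change 2.66, SE 0.23, limma adjusted p = 6.54e-09).

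Mcl1 differed between the subsets in its response. In cDC1 its values were 11636, 11718, 10255 and 11838.5 in immature cells and 22453, 21616 and 28409.5 in mature cells, without overlap, a 2.11-fold rise (log2 fold change 1.08, SE 0.16, limma adjusted p = 8.92e-06) that came to a log2 fold change of 0.96 without mature cDC1 replicate 3, under the 2-fold limit. In cDC2 the immature samples were at 18253, 21481 and 17888 and the mature samples at 18372, 20230.3 and 26899. These ranges overlapped, and the log2 fold change was 0.17 (SE 0.17, limma adjusted p = 0.452).

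Bcl2a1b, an inducible survival gene of haematopoietic cells, showed the largest log2 fold change of the 10 in cDC1. It was at 63.4, 48.3, 184 and 107 in immature and 2044, 2554 and 917 in mature thymic cDC1, and at 473, 169 and 369 in immature and 1310.5, 1060.0 and 1471 in mature thymic cDC2. The mature samples lay above all immature samples of the same subset, and in proportion to their level the samples varied most in immature cDC1. The rise was 18.9-fold in cDC1 (log2 fold change 4.24, SE 0.44, limma adjusted p = 6.16e-08) and 4.10-fold in cDC2 (log2 fold change 2.03, SE 0.47, limma adjusted p = 0.00132). Bcl2a1b has near-identical copies, and 56.8% of the 100-base windows of its transcript also occur in Bcl2a1a, Bcl2a1d or Gm29094, an annotated gene of the same strand, so reads may be split or lost among them. Bcl2a1a and Bcl2a1d are not analysed here.

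**Figure D2:**
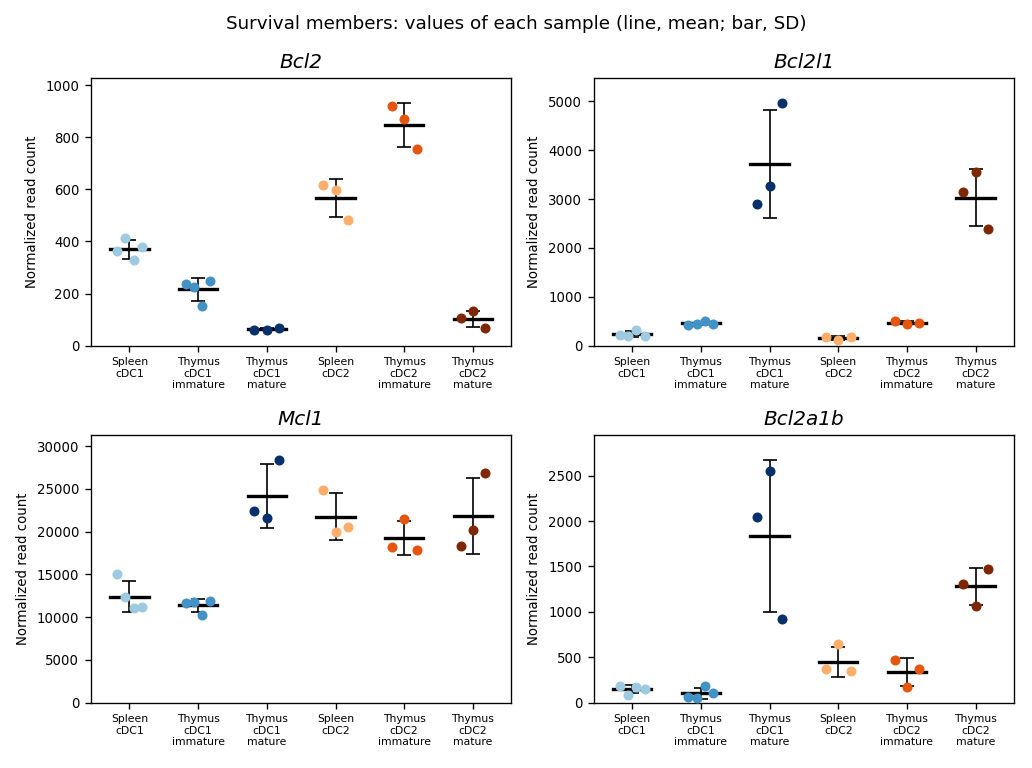
Normalized read count of the 4 survival genes in each sample of the 6 groups, with the group mean as a line and its SD as a bar. Bcl2 falls to between 58.9 and 132 in the mature samples, whereas Bcl2l1 lies between 2395 and 4975 there.

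The effectors stayed within 2-fold. Bax was at 612, 629, 979.9 and 633 in immature and 736, 721 and 923 in mature thymic cDC1 (log2 fold change 0.17, SE 0.25, limma adjusted p = 0.576), and these samples overlapped. In cDC2 it was at 557, 552 and 824 in immature and 1401, 1218 and 902 in mature cells, a 1.82-fold difference without overlap (log2 fold change 0.87, SE 0.27, limma adjusted p = 0.0108), which stayed under the 2-fold limit and came to a log2 fold change of 1.06 without immature cDC2 replicate 3 and 1.04 without mature cDC2 replicate 3. Bak1, the more abundant effector per kb in every group, had log2 fold changes of 0.13 (SE 0.17, limma adjusted p = 0.532) in cDC1 and 0.42 (SE 0.19, limma adjusted p = 0.0682) in cDC2. Its samples ranged from 1955 to 2996 in thymic cDC1 and from 1985 to 3829 in thymic cDC2.

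Of the BH3-only genes, Bid, whose product is activated by cleavage downstream of death receptors, fell. It was at 1444, 1434, 1701 and 1219 in immature and 225, 421 and 439 in mature thymic cDC1, and at 700.3, 629 and 812 in immature and 250.3, 306 and 317 in mature thymic cDC2. The mature samples were below all immature samples in both subsets. The fall was 4.15-fold in cDC1 (log2 fold change -2.05, SE 0.20, limma adjusted p = 2.24e-08) and 2.44-fold in cDC2 (log2 fold change -1.29, SE 0.21, limma adjusted p = 4.31e-05). The exons of Bid share 628 bases with Bcl2l13 on the opposite strand, and Bcl2l13 had log2 fold changes of 0.23 and 0.21 in these comparisons.

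Bcl2l11, which encodes a BH3-only protein that binds all survival members, rose in cDC1 and not detectably in cDC2. Its values were 914, 866, 688 and 889 in immature and 3156, 2360.4 and 3452 in mature thymic cDC1. In cDC2 they were 2426, 2559 and 2187 in immature and 2535, 2455 and 2647 in mature cells. Immature thymic cDC2 were thus already at the level of the mature samples, and the ranges overlapped. The log2 fold change was 1.82 (SE 0.17, limma adjusted p = 8.41e-09) in cDC1 and 0.09 (SE 0.18, limma adjusted p = 0.707) in cDC2.

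Bmf and Bbc3 were higher in mature cells of both subsets. Bmf, whose product is held at the cytoskeleton in resting cells, was at 365, 302, 384 and 316 in immature and 1449, 1490.4 and 1267 in mature thymic cDC1, and at 528, 621 and 599.7 in immature and 2434, 2201 and 2489.6 in mature thymic cDC2. The rise was 4.10-fold in cDC1 (log2 fold change 2.04, SE 0.16, limma adjusted p = 6.42e-10) and 4.07-fold in cDC2 (log2 fold change 2.03, SE 0.17, limma adjusted p = 4.34e-09). Bbc3, a target gene of p53, was at 255, 267, 267 and 133 in immature and 479, 333 and 668 in mature thymic cDC1, and at 91.8, 154 and 111 in immature and 598, 665 and 342 in mature thymic cDC2. Its samples did not overlap in either subset but varied more than those of Bmf. The log2 fold change was 2.14 (SE 0.57, limma adjusted p = 0.00396) in cDC2 and 1.09 (SE 0.53, limma adjusted p = 0.0854) in cDC1. The call in cDC1 rested on single samples, since the adjusted p was 0.101 without immature replicate 1, 0.207 without immature replicate 4, 0.151 without mature replicate 1 and 0.245 without mature replicate 3, with log2 fold changes of 0.85 to 1.16.

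**Figure D3:**
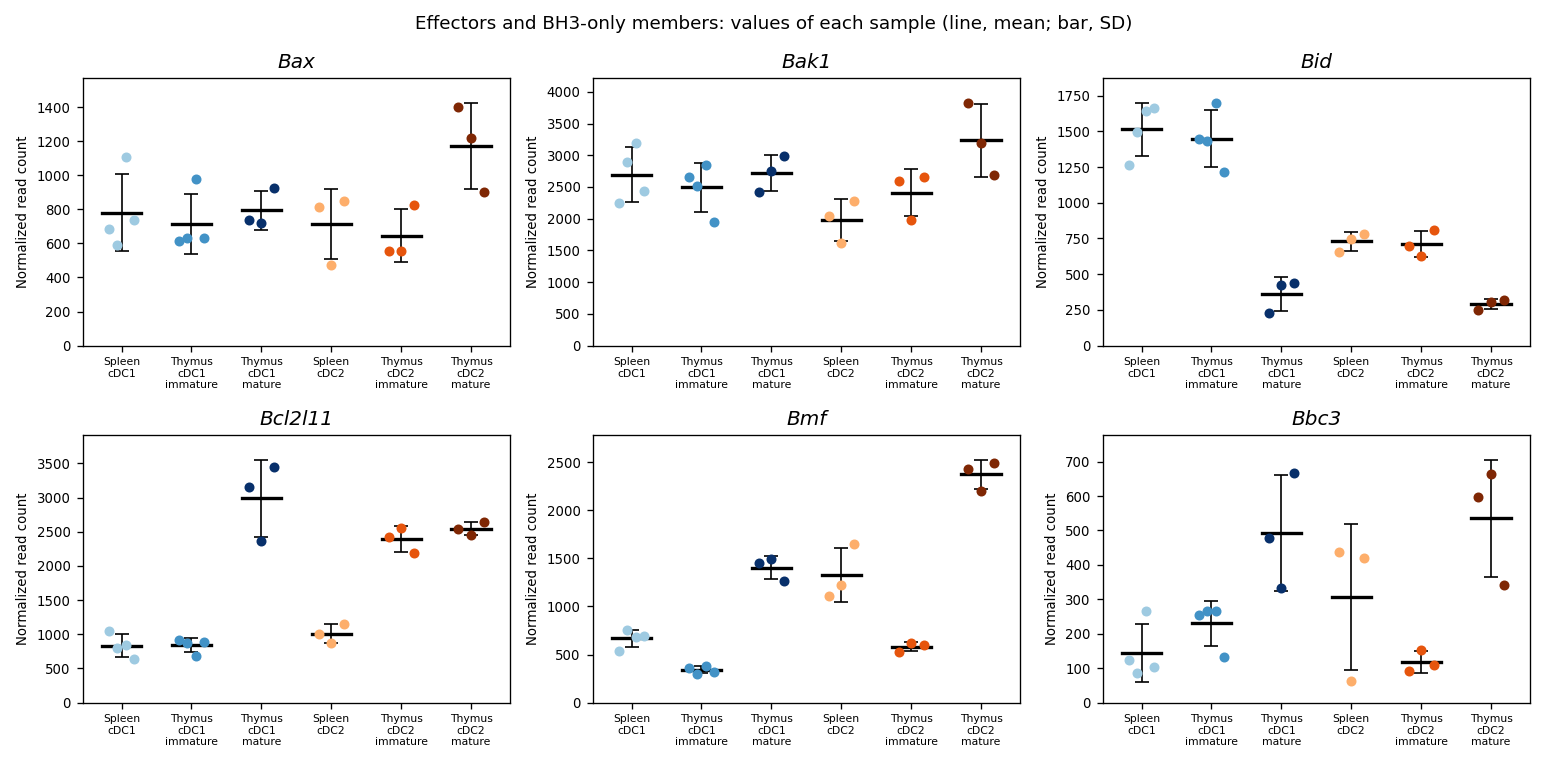
Normalized read count of the effectors Bax and Bak1 and the BH3-only genes Bid, Bcl2l11, Bmf and Bbc3 in each sample, with the group mean as a line and its SD as a bar. Bcl2l11 is at 2187 or more in immature thymic cDC2 and at 914 or less in immature thymic cDC1.

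**Figure D4:**
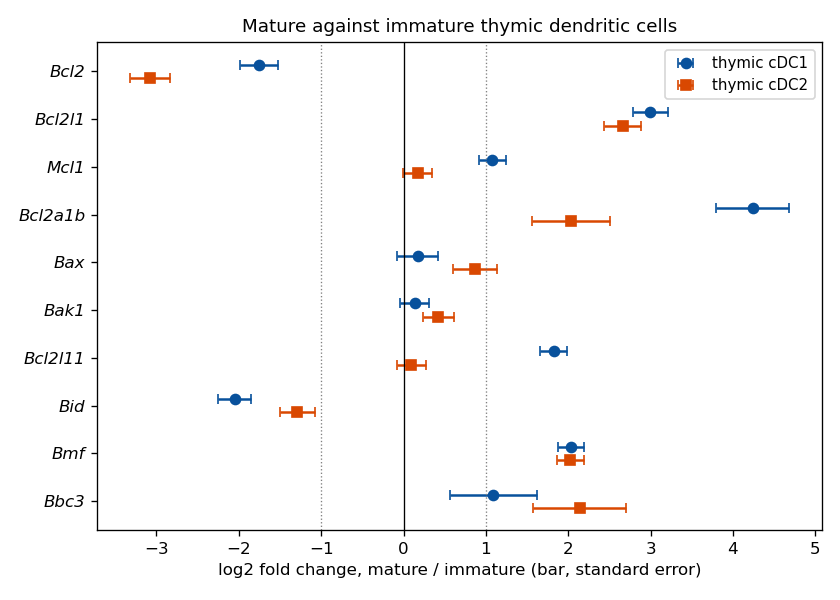
Log2 fold change of mature over immature thymic cells for the 10 genes in cDC1 (circles) and cDC2 (squares), with the standard error of the fit as a bar and dotted lines at the 2-fold limit. Bcl2 and Bid lie below 0 in both subsets, and Mcl1 and Bcl2l11 lie beyond the 2-fold line in cDC1 and near 0 in cDC2.

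Markers of other cells moved with maturation. The summed level of 7 thymocyte and T cell markers was 93.6 to 175 in immature and 632 to 1351 in mature thymic cDC1, and 79.0 to 185 in immature and 589 to 1020 in mature thymic cDC2, with Ptcra at or near 0 in every group. The 5 thymic epithelial markers summed to 575 to 705 in immature and 254 to 525 in mature thymic cDC1, and to 3487 to 3816 and 677 to 1010 in cDC2, where Epcam averaged 3516 and 385 but Krt5 32.5 and 175 and Psmb11 13.0 and 108. The 5 granulocyte and monocyte markers summed to 224 to 362 in immature and 84.8 to 196 in mature thymic cDC1, and to 250.4 to 285 and 25.3 to 47.3 in cDC2. Most of the immature sums was Ly6c2, which averaged 264 and 78.2 in cDC1 and 249 and 22.5 in cDC2. In cDC1 S100a8 averaged 0.78 in immature and 11.0 in mature cells, S100a9 0 and 8.54, and Mpo 14.7 and 25.9. The 5 plasmacytoid dendritic cell markers summed to 5202 to 6005 in immature and 6172 to 9692 in mature thymic cDC1. In cDC2 they summed to 11988 to 13587 and 11242 to 15029, where Siglech averaged 889 and 38.2 but Spib 1556 and 6817. Their part in the changes of the 10 genes was not tested. Within lane 8, which held all mature libraries, the log2 fold changes in cDC1 were -1.70 for Bcl2, 2.97 for Bcl2l1, 4.08 for Bcl2a1b, -2.05 for Bid and 2.07 for Bmf. Without mature cDC2 replicate 3, the library with few macrophage markers, 7 of the 10 genes passed in cDC2 in place of 6, the added gene being Bax.

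The tissue comparison set immature thymic cells against splenic cells of the same subset, with the immature thymic samples shared with the maturation comparison. In cDC1, 0 of the 10 genes passed both limits in the limma test (8.77% of all tested genes did), and 0 did in edgeR or DESeq2, whereas 3, Bcl2, Bcl2l1 and Bmf, had an unadjusted p below 0.05, the same 3 passed the adjusted p alone (15.4%), and the samples of 3 did not overlap (17.8%). In cDC2, 3 of 10 passed both limits (14.2%), namely Bcl2l1 and Bcl2l11 higher and Bmf lower in thymus, 4 of 10 passed the adjusted p alone (26.5%), and 4 did not overlap (39.3%). The median log2 fold change of the 10 was -0.11 in cDC1 and -0.08 in cDC2, beside 0.00 and 0.02 over all tested genes. Bcl2l1 and Bmf lay close to the 2-fold limit in cDC1. The count became 1 without any single one of splenic cDC1 replicates 1 and 3 or immature thymic cDC1 replicates 1, 2, 3 and 4, with log2 fold changes of 1.01 to 1.16 for Bcl2l1 or of -1.02 and -1.06 for Bmf.

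Bcl2l1 was higher in thymus in both subsets. Splenic cDC1 were at 216, 188, 316 and 203 and splenic cDC2 at 169, 119 and 179, below every immature thymic sample. The log2 fold change was 0.997 (SE 0.20, limma adjusted p = 0.00114) in cDC1, which is 1.997-fold and just under the 2-fold limit, and 1.61 (SE 0.23, limma adjusted p = 2.52e-05) in cDC2, which is 3.06-fold. Bmf was lower in thymus. Its splenic values were 536, 753, 682 and 696 in cDC1 and 1108, 1224 and 1646 in cDC2, above every immature thymic sample of the same subset. The log2 fold change was -0.96 (SE 0.14, limma adjusted p = 7.27e-05) in cDC1, under the 2-fold limit, and -1.17 (SE 0.17, limma adjusted p = 3.28e-05) in cDC2.

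Bcl2 and Bcl2l11 differed between tissues in a way that depended on the subset. Splenic cDC1 held 363, 414, 327 and 377 normalized reads of Bcl2, all above immature thymic cDC1, a 1.73-fold lower level in thymus (log2 fold change -0.79, SE 0.21, limma adjusted p = 0.0128). Splenic cDC2 held 618, 597 and 484, all below immature thymic cDC2, a 1.50-fold higher level in thymus (log2 fold change 0.58, SE 0.24, limma adjusted p = 0.0952). Neither difference reached 2-fold. Bcl2l11 was at 1042, 804, 840.4 and 640.0 in splenic cDC1, which overlapped immature thymic cDC1 (log2 fold change 0.03, SE 0.15, limma adjusted p = 0.962). In splenic cDC2 it was at 1005, 867 and 1149, below every immature thymic cDC2 sample, and the gene was 2.38-fold higher in thymus (log2 fold change 1.25, SE 0.18, limma adjusted p = 2.86e-05). For the other genes, Mcl1, Bcl2a1b, Bax, Bak1, Bid and Bbc3, the tissue comparison did not pass the adjusted p in either subset. Their log2 fold changes ran from -0.68 to 0.77 in cDC1 and, in cDC2, from -0.95 to 0.29.

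Markers of maturation and of other cells also differed between tissues. Ccl22, a chemokine of mature dendritic cells, averaged 257 in splenic and 1809 in immature thymic cDC1, and 218 and 15572 in cDC2. Fscn1 averaged 662 in splenic and 3603 in immature thymic cDC2 but 509.7 and 366 in cDC1, and Cd83 was lower in immature thymic than in splenic cells, at 13787 against 20820.5 in cDC1 and 22089 against 35574 in cDC2. The 5 maturation markers together summed to 37216 to 50518 in immature thymic and 37596 to 43426 in splenic cDC2. The 5 thymic epithelial markers summed to 3487 to 3816 in immature thymic cDC2 and 84.7 to 152 in splenic cDC2, mostly through Epcam, which some dendritic cells also express, while Foxn1 was at 6.03 or less in both groups. Of 5 macrophage markers 4 had values, and these summed to 3722 to 6079 in immature thymic and 701 to 1113 in splenic cDC2. The 5 plasmacytoid dendritic cell markers summed to 11988 to 13587 and 5523 to 5674 in the same groups. The 7 thymocyte and T cell markers summed to 3.69 to 10.8 in splenic and 93.6 to 175 in immature thymic cDC1, and to 24.4 to 72.3 and 79.0 to 185 in cDC2. For 5 B cell markers the sums were 566 to 984 and 106 to 139 in cDC1, and 600 to 637 and 169 to 240 in cDC2. In splenic cDC1 the epithelial, plasmacytoid and granulocyte and monocyte sums were 40.4 to 76.2, 3608 to 4194 and 81.9 to 126. In immature thymic cDC1 they were 575 to 705, 5202 to 6005 and 224 to 362. Macrophage sums overlapped in cDC1, at 21.6 to 147 and 80.8 to 256. Their part in the differences was not tested. Within lane 5 and within lane 8 the log2 fold changes in cDC2 were 1.82 and 1.34 for Bcl2l1, 1.38 and 1.04 for Bcl2l11 and -1.14 and -1.43 for Bmf. Lane 5 held 1 immature thymic and 2 splenic cDC2 samples and lane 8 held 2 and 1, so each value rests on 1 sample on 1 side.

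**Figure D5:**
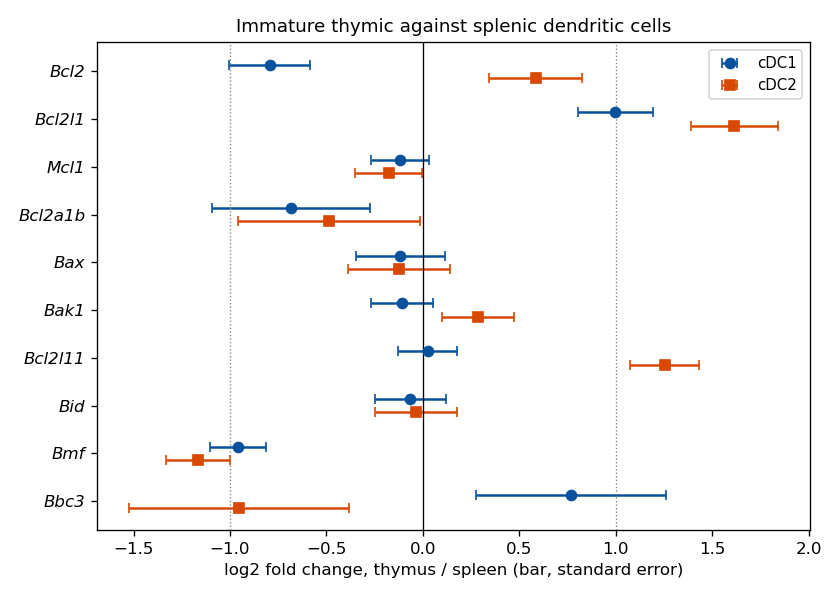
Log2 fold change of immature thymic over splenic cells for the 10 genes in cDC1 (circles) and cDC2 (squares), with the standard error of the fit as a bar and dotted lines at the 2-fold limit. Bcl2 lies on opposite sides of 0, at -0.79 in cDC1 and 0.58 in cDC2, and Bcl2l11 is at 0.03 and 1.25.

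The subset comparison set cDC2 against cDC1. In spleen 2 of 10 genes passed both limits (16.6% of all tested genes), 7 passed the adjusted p alone (29.4%) and 6 did not overlap (31.6%). In immature thymic cells the counts were 4 (16.4%), 6 (26.0%) and 5 (34.8%). In mature thymic cells they were 0 in the limma test and in edgeR and DESeq2 (18.9%), 2 (30.3%) and 2 (32.8%), and those passing the adjusted p, Bcl2 and Bmf, were also the genes of the 10 with an unadjusted p below 0.05. The median of all tested genes was itself shifted by 0.14 on the log2 scale towards mature cDC2. Markers of other cells differed between the subsets too. The 4 macrophage markers with values summed to 21.6 to 147 in splenic cDC1 and 701 to 1113 in splenic cDC2, and to 80.8 to 256 and 3722 to 6079 in immature thymic cDC1 and cDC2. The 5 plasmacytoid dendritic cell markers summed to 5202 to 6005 in immature thymic cDC1 and 11988 to 13587 in immature thymic cDC2. In mature thymic cells the macrophage sums were 71.1 to 286 in cDC1 and 1156 to 10034 in cDC2. The plasmacytoid sums there were 6172 to 9692 and 11242 to 15029, and 5 B cell markers summed to 107 to 173 and 240 to 401. Thymocyte and T cell sums overlapped, at 632 to 1351 in mature cDC1 and 589 to 1020 in mature cDC2. Their part in the differences below was not tested.

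Bid was lower in cDC2 than in cDC1 in spleen and immature thymus. Splenic cDC1 were at 1262, 1495, 1642 and 1661 and splenic cDC2 at 658, 748 and 781, without overlap. The log2 fold change was -1.05 (SE 0.20, limma adjusted p = 0.000411) in spleen, -1.02 (SE 0.20, limma adjusted p = 0.0006) in immature thymus and -0.26 (SE 0.21, limma adjusted p = 0.422) in mature thymus. It was -0.98 in spleen without splenic cDC2 replicate 1, and -0.93 and -0.94 in immature thymus without cDC2 replicate 2 or cDC1 replicate 3, each under the 2-fold limit.

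Bcl2 was higher in cDC2 in all 3 settings. The log2 fold change was 0.61 (SE 0.23, limma adjusted p = 0.0553) in spleen, 1.99 (SE 0.23, limma adjusted p = 9.86e-07) in immature thymus and 0.66 (SE 0.24, limma adjusted p = 0.0523) in mature thymus. Its 6 groups did not overlap with their neighbours, in the order immature thymic cDC2, splenic cDC2, splenic cDC1, immature thymic cDC1, mature cDC2 and mature cDC1. Bmf was also higher in cDC2 throughout, at log2 fold changes of 0.98 (SE 0.16, limma adjusted p = 6.26e-05), 0.77 (SE 0.16, limma adjusted p = 0.000824) and 0.76 (SE 0.17, limma adjusted p = 0.00219), all under the 2-fold limit. In spleen it passed that limit without splenic cDC2 replicate 1 or 2 or splenic cDC1 replicate 2 or 4, at 1.00 to 1.10.

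Mcl1 and Bcl2a1b were higher in cDC2 than in cDC1 among immature cells. Mcl1 was at 15041, 12359.6, 11016 and 11174 in splenic cDC1 and 24883, 19918 and 20491 in splenic cDC2, a log2 fold change of 0.82 (SE 0.16, limma adjusted p = 0.000671), and the value in immature thymus was 0.75 (SE 0.16, limma adjusted p = 0.00151). In mature cells it was -0.15 (SE 0.17, limma adjusted p = 0.571), and the samples of both mature groups and both immature cDC2 groups overlapped with their neighbours and lay above those of both immature cDC1 groups. Bcl2a1b was at 186, 82.8, 174 and 153 in splenic cDC1 and 367, 642 and 345 in splenic cDC2, without overlap. Its log2 fold change was 1.60 (SE 0.44, limma adjusted p = 0.0102) in spleen, 1.80 (SE 0.44, limma adjusted p = 0.00472) in immature thymus, where the samples overlapped, and -0.41 (SE 0.47, limma adjusted p = 0.58) in mature thymus. Within lane 8 the Bcl2a1b values were 1.08 (limma adjusted p = 0.447) in spleen and 1.33 (limma adjusted p = 0.114) in immature thymus, and within lane 5 they were 1.96 and 2.88, whereas Bid was at -1.08 and -1.01 in lane 8 and -0.97 and -1.04 in lane 5. Splenic cDC2 held 1 sample in lane 8, and each immature thymic subset held 1 in lane 5. The remaining call among immature thymic cells was Bcl2l11, 2.86-fold higher in cDC2 (log2 fold change 1.51, SE 0.17, limma adjusted p = 6.2e-07).

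Bbc3 was the most variable of the 10 in splenic cDC2, at 438, 61.9 and 420.4, beside 123, 84.8, 267 and 103 in splenic cDC1. Its log2 fold change between cDC2 and cDC1 in spleen was 0.79 (SE 0.53, limma adjusted p = 0.341) and became 1.72 (limma adjusted p = 0.00449) without splenic cDC2 replicate 2, the sample at 61.9, when 4 genes passed both limits in spleen. The same omission took its tissue comparison in cDC2 from -0.95 (SE 0.57, limma adjusted p = 0.27) to -1.88 (limma adjusted p = 0.00467). Bax was at 686, 588, 1107 and 740.2 in splenic cDC1 and 811, 475 and 849 in splenic cDC2, and Bak1 at 2250.4, 2892, 3198 and 2430.0 and at 2036, 1616 and 2285. Both overlapped between the subsets, and Bak1 had a log2 fold change of -0.44 (SE 0.17, limma adjusted p = 0.0696).

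Whether an effect differed between the subsets was tested directly as a difference of log2 fold changes, cDC2 minus cDC1. For maturation 3 of 10 genes passed both limits (13.6% of all tested genes) and 5 the adjusted p alone (18.5%), with the median of all tested genes at 0.11. Bcl2 fell further in cDC2 (difference -1.33, SE 0.33, limma adjusted p = 0.0105). Bcl2a1b rose less in cDC2 (difference -2.21, SE 0.65, limma adjusted p = 0.0283). Bcl2l11, which rose in cDC1 alone, had a difference of -1.73 (SE 0.24, limma adjusted p = 6.87e-05). Under the 2-fold limit were Mcl1 at -0.91 (SE 0.24, limma adjusted p = 0.0145), which came to -1.07 without mature cDC2 replicate 3, and Bid at 0.76 (SE 0.29, limma adjusted p = 0.094). Within lane 8 the differences were -1.32 for Bcl2 (limma adjusted p = 0.112) and -1.74 for Bcl2a1b (limma adjusted p = 0.172), and the call left was Bcl2l11. For Bcl2l1 the difference was -0.33 (SE 0.31, limma adjusted p = 0.533) and for Bmf -0.01 (SE 0.23, limma adjusted p = 0.985).

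For the tissue effect 2 of 10 genes passed both limits (4.98% of all tested genes), and the same 2 passed the adjusted p alone (6.25%). These were Bcl2, with a difference of 1.38 (SE 0.32, limma adjusted p = 0.012), and Bcl2l11, with 1.23 (SE 0.23, limma adjusted p = 0.00257). Within lane 8, with 8 samples in these 4 groups, neither passed, at 1.52 (limma adjusted p = 0.376) for Bcl2 and 0.90 (limma adjusted p = 0.371) for Bcl2l11. The difference for Bcl2l1 was 0.62 (SE 0.30, limma adjusted p = 0.351). For Bbc3 it was -1.72 (SE 0.75, limma adjusted p = 0.276), and -2.64 (limma adjusted p = 0.00639) without splenic cDC2 replicate 2. With all samples kept, DESeq2 gave -2.04 for Bbc3 (DESeq2 adjusted p = 0.0413), which passed both limits.

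The promoters of the 10 genes were searched for short motifs of factors linked to this family. RefSeq windows from 250 bases before to 50 bases after each start site (build GRCm38.p6) were found for 10 of 10 genes. The core FOXO motif GTAAACA, read on both strands, occurred in 2 of the 10, Bcl2l11 and Bbc3, and in 4.05% of the 27025 genes with a window. The NF-kappaB consensus occurred in 3 of the 10, Bcl2l1, Bmf and Bbc3, and in 9.55% of genes. These 3 genes had 3 windows each and Bcl2l11 had 2, whereas the other members had 1, so more sequence was searched for them. Of all 32851 windows, 3.65% held the FOXO core and 8.46% the NF-kappaB consensus. No FOXO match overlapped an NF-kappaB match, and the NF-kappaB match of Bbc3 is followed by another that begins 1 base further on and is not shown apart. The match in Bmf begins at its start site and is not shown. The other 4 are shown in the direction of transcription with the match in capitals. They lie at chr2:128125788-128125842 (plus strand) for Bcl2l11, at chr7:16310069-16310125 and chr7:16309421-16309480 (plus strand) for Bbc3, which has more than 1 annotated start site, and at chr2:152830925-152830967 (minus strand) for Bcl2l1.
Bcl2l11, FOXO core: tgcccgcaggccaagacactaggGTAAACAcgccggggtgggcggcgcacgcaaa
Bbc3, FOXO core on the opposite strand: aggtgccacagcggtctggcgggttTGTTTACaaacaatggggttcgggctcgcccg
Bbc3, NF-kappaB consensus: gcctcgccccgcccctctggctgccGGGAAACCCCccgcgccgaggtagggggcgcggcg
Bcl2l1, NF-kappaB consensus: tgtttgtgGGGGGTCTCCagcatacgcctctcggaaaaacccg

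The matches begin 227 and 167 bases before the start sites for FOXO in Bcl2l11 and Bbc3, and 137 and 242 bases before them for NF-kappaB in Bbc3 and Bcl2l1. A match is a description of the letters in these windows, and binding was not measured. Foxo3, a FOXO factor known to act on Bcl2l11 and Bbc3 and named here for that reason, had log2 fold changes of -0.10 in both maturation comparisons (limma adjusted p = 0.69 in cDC1 and 0.733 in cDC2). It passed both limits as higher in splenic cDC2 than in splenic cDC1, and as lower in immature thymic than in splenic cDC2. Foxo3 averaged 1147 in splenic cDC1, 2611 in splenic cDC2 and 1097 in immature thymic cDC2, and its part in the differences was not tested.

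Other genes of the pathway were described from lists by their counts at maturation, to be read against the 45.7% of all tested genes that passed both limits in cDC1 and the 35.6% in cDC2. Of 5 further BH3-only and effector genes, 2 had enough reads to be tested, and Pmaip1, which encodes NOXA, a partner of MCL1, rose in cDC1. It averaged 9587 ± 2237 (SD, n = 4) in immature cells, and mature cells held 22434 ± 644 (SD, n = 3), which gave a log2 fold change of 1.25 (SE 0.29, limma adjusted p = 0.00104). In cDC2 its log2 fold change was 0.76 (SE 0.31, limma adjusted p = 0.0526) and the samples overlapped. Of 4 further survival genes 1 was tested, Bcl2l2, which encodes BCL-W, and it rose in cDC2 (log2 fold change 1.16, SE 0.21, limma adjusted p = 0.000137) and had a log2 fold change of 0.33 (SE 0.20, limma adjusted p = 0.167) in cDC1. Of 6 less characterised relatives 5 were tested and 1 passed both limits in each subset, fewer than the share of all tested genes, namely Bcl2l14, whose level in thymic cDC1 was 563 ± 113 (SD, n = 4) in CCR7- and 12916 ± 1204 (SD, n = 3) in CCR7+ cells (log2 fold change 4.53, SE 0.17, limma adjusted p = 1.9e-14), and at 116 and 2433 in cDC2 (log2 fold change 4.41, SE 0.18, limma adjusted p = 4.29e-13).

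Downstream of the mitochondria, 6 of 10 genes of the caspase pathway passed both limits in cDC1, 3 higher and 3 lower, and 4 of 10 in cDC2, 2 higher and 2 lower, which is near the 45.7% and 35.6% of all tested genes. Htra2, a mitochondrial protease that antagonises inhibitors of apoptosis, went from 866 to 8603 normalized reads in cDC1 and from 1056 to 7336 in cDC2 (log2 fold changes 3.31 and 2.79), and the executioner Casp6 fell, with log2 fold changes of -2.46 and -2.49. Of 5 genes for inhibitor of apoptosis proteins, 2 rose and 1 fell in each subset, beside the same 45.7% and 35.6%. Birc2 rose from 1451 to 26585 in cDC1 and from 2399 to 30147 in cDC2 (log2 fold changes 4.20 and 3.64), and Birc3 had log2 fold changes of 2.36 and 1.59. Birc5, which is also a mitotic gene of dividing cells, fell by log2 fold changes of -5.27 and -3.52.

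In the death receptor pathway 2 of 7 genes rose in cDC1 and 3 of 7 in cDC2, and 0 fell past both limits in either, where 21.3% and 18.6% of all tested genes rose and 24.5% and 17.0% fell. The receptor Fas went from 52.1 to 2716 in cDC1 and from 166 to 2992 in cDC2 (log2 fold changes 5.75 and 4.16), and Cflar, the inhibitor of caspase-8 activation, from 2819 to 32626 and from 5385 to 24996 (log2 fold changes 3.54 and 2.18). Tnfrsf10b, a TRAIL receptor, rose in cDC2 (log2 fold change 1.83, SE 0.46, limma adjusted p = 0.00258) and had a log2 fold change of 0.83 (limma adjusted p = 0.108) in cDC1. Among 7 regulators of the family, 1 rose and 1 fell in each subset, a smaller share than the 45.7% and 35.6% of all tested genes. Huwe1, a ubiquitin ligase that acts on MCL1, rose by log2 fold changes of 1.31 and 1.29. Trp53, which encodes p53, had log2 fold changes of -1.76 (limma adjusted p = 2.8e-08) and -1.04 (limma adjusted p = 0.000107).

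The genes whose pattern was most like that of each member were sought among 10223 tested genes with a mean of at least 100, by Pearson's r of the log2 values over the 20 samples, which share the group structure. For Bcl2 these were Milr1 (r = 0.97) and Pecam1 (0.96), for Bcl2l1 Arfgap3 and Prmt2 (0.99 each), for Mcl1 Malt1 and Nfkbiz (0.95 each) and for Bcl2a1b Mthfs (0.96) and Gbp8 (0.95). Mthfs is the next gene on the same strand, 2848 bases downstream of Bcl2a1b on chromosome 9 (mm10), and Gm29094 is annotated across both. For the BH3-only genes they were Flrt3 and Stat5a (0.94 each) for Bcl2l11, Mycl (0.98) and Slco3a1 (0.97) for Bid, Vopp1 and Dhx57 (0.97 each) for Bmf, and Dvl1 and Atp6v0b (0.94 each) for Bbc3. For the effectors they were Fam195b (0.94) and Tmem134 (0.91) for Bax and Apoa1bp (0.88) and March2 (0.87) for Bak1. Among the members themselves, r was lowest between Bcl2a1b and Bid (-0.89) and highest between Bcl2a1b and Bmf (0.84).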

How the data were processed

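RNA of sorted cDC pools was sequenced in 21 libraries. Before deposit, the authors used Cutadapt for trimming, STAR (version 2.6) for alignment against mm10 and HTSeq-count for the number of reads on each Ensembl gene. The values they deposited are a signal, the read count divided by the DESeq2 (1.24.0) size factor of the library, and dividing by the smallest step returned whole reads for 100% of values, within 0.01 read. The library kit keeps strand, and the strand setting of the counting and the Ensembl release are not given in the sources used here.

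Groups were taken from the labels. Values were tested as log2(value + 1) with limma (3.58.1, R 4.3.3) with an intensity trend over all 6 groups and 20 samples, for the 14970 genes with at least 10 in at least 3 samples, a filter all 10 members passed, with Benjamini-Hochberg adjustment over all of them. To be called, a gene needed an adjusted p under 0.1 together with a change of more than 2-fold. Fold changes are on the log2(value + 1) scale, which understates those of low genes. Splenic cDC1 replicates 4 and 5 were combined. Counting error only is covered by the read numbers given.

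The members, the gene lists and the tests were chosen with earlier results of these data known. All 10 members were named in all comparisons. From each list of other genes, up to 3 were named, those of the largest absolute log2 fold change at maturation among called genes with a mean of at least 100, and 1 such gene is not reported here. Alternatives were edgeR (4.0.16) and DESeq2 (1.42.0) on the recovered reads, pseudocounts of 0.1 and 8, no filter, TMM scaling, fits of the compared groups alone, other treatments of repeated libraries, lane 8 alone, a block on the pool and leaving out each sample. The fitting script was tested on simulated data. In mature against immature thymic cDC1, edgeR called 6732 genes and limma 6848. Levels per kb used exon lengths of GENCODE M21, and promoter windows came from RefSeq.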

Additional observations from a re-analysis of the deposited data

Results flagged for a closer look

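Of 20 sets of 4 samples, each 1 of the 10 genes in splenic or immature thymic cDC1, 3 held a sample far from the others, where chance gives about 1 in 20. These were Mcl1 in immature thymic cDC1 replicate 3, at 10255 normalized reads (a gap of 0.872 of the whole range), Bax in the same replicate, at 979.9 (0.945), and Bbc3 in immature thymic cDC1 replicate 4, at 133 (0.912). Replicates 3 and 4 had the same pool, and both stayed in the comparisons.

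Effects differed between cDC2 and cDC1 by a test of the difference itself (limma adjusted p below 0.1). For maturation the differences in log2 fold change were -1.33 for Bcl2, -0.91 for Mcl1, -2.21 for Bcl2a1b, -1.73 for Bcl2l11 and 0.76 for Bid. For tissue they were 1.38 for Bcl2 and 1.23 for Bcl2l11. Immature thymic cDC2, in which Bcl2 and Bcl2l11 were both higher than in immature thymic cDC1, enter both effects, so these differences share samples.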

How the results depend on the processing

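The count of the 10 genes called in thymic against splenic cDC1 was 0 and became 1 with a pseudocount of 0.1, with all 21 libraries, with libraries of the same pool combined and within lane 8, and was 0 to 1 on leaving out single samples. Within lane 8 the counts of differing effects were 1 in place of 3 for maturation and 0 in place of 2 for tissue. In splenic cDC2 against cDC1 the count was 2 to 4 on leaving out single samples.

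Directions turned for values near 0 that were not called. Within lane 8 Mcl1 came to 0.020 in thymic against splenic cDC1 and Bcl2l1 to -0.016 in immature thymic cDC2 against cDC1. The maturation difference of Bmf was 0.026 in edgeR and 0.027 with TMM scaling, and the tissue difference of Bax was 0.071 with same-pool libraries combined. On leaving out single samples the log2 fold change in thymic against splenic cDC1 ranged from -0.092 to 0.14 for Bcl2l11, -0.28 to 0.065 for Bax, -0.19 to 0.0037 for Bak1 and -0.15 to 0.014 for Bid. In cDC2 it ranged from -0.39 to 0.028 for Bax and -0.13 to 0.052 for Bid. Between the subsets Bax ranged from -0.29 to 0.13 in spleen and -0.33 to 0.019 in immature thymus, Bak1 from -0.16 to 0.085 in immature thymus and Bbc3 from -0.14 to 0.41 in mature thymus. The difference of effects ranged from -0.082 to 0.046 for Bmf in maturation, and in tissue from -0.16 to 0.039 for Mcl1, -0.11 to 0.63 for Bcl2a1b, -0.27 to 0.16 for Bax and -0.066 to 0.12 for Bid. The causes were not tested.

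Bbc3 lost its call at maturation in cDC1 without a filter (limma adjusted p = 0.125), when 23125 genes were tested, and with same-pool libraries combined (0.158). Its tissue value in cDC2 passed in edgeR (-1.34) and DESeq2 (-1.37). In DESeq2 Bbc3 also passed in splenic cDC2 against cDC1, at 1.09 (DESeq2 adjusted p = 0.0773), and in the tissue difference between subsets, at -2.04 (0.0413). Of 940 values under alternatives other than leaving out samples, 916 kept their direction and side of the threshold, 8 fell below it, 11 passed it and 5 turned.

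The correlation of same-pool deviations was -0.03, 0.33 and 0.45 in spleen and -0.11, 0.21 and 0.15 in immature thymus. Between different pools it ran from -0.49 to 0.32 in spleen and from -0.38 to 0.27 in immature thymus. These few values do not settle whether the pool numbers pair the samples, and the main test left the pool out. With the pool as a replicate block, 2 of the 10 genes were called in spleen and 5 in immature thymus, the same counts as without the block on those pools. Over all genes the block gave 2740 calls against 2525 in spleen and 2655 against 2667 in thymus. The added call in immature thymus was Bbc3, at -1.03 with the block (limma adjusted p = 0.0236) and -1.03 without it on those pools (0.0194), beside -0.93 (0.266) over all samples. Other comparisons shared fewer pools or were of different tissues, and no block was fitted. Mature Bcl2 values rest on 33 to 190 reads, which limits their precision.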
